A study of Mus musculus with 8 samples.

Results

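The genes that give a forebrain neuron its transmitter were followed in single-nucleus chromatin accessibility profiles: Gad1, Gad2 and Slc32a1 for GABA, and Slc17a6 and Slc17a7 for glutamate. They are 5 of the 21951 protein-coding genes of the annotation. A gene's peaks were those overlapping its body or the 2000 bp upstream of it, and peaks within 1000 bp of a transcription start site of the gene were kept apart, as promoter peaks, from its other peaks. The 8 wild-type mouse samples came from the cortex (CTX) and from the medial, lateral and caudal ganglionic eminences (MGE, LGE and CGE, jointly GE), with 2 samples a region, and held 39253 nuclei. All were labelled E12.5 (embryonic day) except CTX replicate 2, labelled E14.5, so age and replicate cannot be told apart within CTX. The labels do not say whether the replicates came from separate litters, and p-values then measure only the spread between these samples.

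GABA is made from glutamate by 2 decarboxylases, GAD67 encoded by Gad1 and GAD65 encoded by Gad2, and is loaded into synaptic vesicles by the transporter VGAT, encoded by Slc32a1. Glutamate is loaded by the vesicular transporters VGLUT2 (Slc17a6) and VGLUT1 (Slc17a7). GABAergic neurons of the forebrain arise in the ganglionic eminences, and the glutamatergic projection neurons of the cortex arise in the cortical wall, where VGLUT2 is common in young neurons and VGLUT1 comes to prevail as they mature.

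The samples held 77387940 to 138873845 counts in peaks, with medians of 14584 to 22209.5 counts per nucleus, and any pair of samples shared 15 to 56 barcodes. Levels below are CPM, the count per 1000000 counts in the sample's peaks. A difference is said to pass where the quasi-likelihood test of edgeR, fitted over all genes or regions, gave an adjusted p (Benjamini-Hochberg) at or under 0.05. Peaks were called in each sample on its own, so a sum grows with the length called, and CPM per covered kilobase is given beside it. Of the regional markers, Nkx2-1 and Emx1 followed the MGE and CTX labels. Nkx2-1 stood at 496 and 319 CPM in MGE against 13.7 to 33.3 elsewhere, and Emx1 at 96.9 and 146 CPM in CTX against 31.2 to 53.4. Gsx2 did not separate LGE (36.3 and 126 CPM) from MGE (106 and 92.8), with 41.4 and 40 in CGE. Nr2f2 did not separate CGE (222 and 437 CPM) from MGE (226 and 196), with 74 and 116 in LGE. The 2 CTX samples stood apart from each other, however. When nuclei were clustered without the members' loci, 3940 of the 4108 nuclei of CTX replicate 1 were glutamatergic-like, 137 GABAergic-like and 0 progenitor-like. In CTX replicate 2, 4130 of 4946 nuclei lay in clusters that met no marker list, 539 were glutamatergic-like and 0 GABAergic-like. A cluster was named by markers raised in it relative to all other nuclei, most of which came from GE. The counts of glutamatergic-like nuclei are therefore not counts of neurons. A count of 0 here means that no nucleus of that sample fell in a cluster of that name, not that such cells were absent. The progenitor markers summed to 1039 CPM in CTX replicate 1 against 1326 to 1775 in GE. The gene sums and the co-opening of the GABA genes are therefore also given without each CTX sample. Fewer nuclei of a type and less open chromatin per nucleus cannot be told apart in the sums.

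Gad1 was less open in CTX than in the eminences. Its peaks summed to 51.7 and 58.5 CPM in CTX replicates 1 and 2, 162 and 124 in MGE, 101 and 99.1 in LGE, and 99.9 and 104 in CGE. MGE stood highest, LGE and CGE overlapped, and both CTX samples lay below the other 6. The fitted level was 1.77-fold lower in CTX than in the mean of the 3 eminences (log2 −0.83, SE 0.13; edgeR adjusted p = 0.0182). It passed in 5 of 8 fits that left out 1 sample, with adjusted p of 0.0564, 0.0524 and 0.0527 in edgeR without CGE replicate 2, LGE replicate 1 and LGE replicate 2 and log2 differences of −0.89 to −0.79 over the 8 fits. Per covered kilobase Gad1 had 4.25 and 5.11 CPM in CTX and 6.37 to 9.3 in GE, again without overlap. With the covered length as an offset the difference in gene sums was −0.52 and did not pass (edgeR adjusted p = 0.293).

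Most Gad1 counts lay in a broad open domain at its start. RefSeq places the start site that lies in it at position 70562129 of chromosome 2, and the domain spanned chr2:70557654-70570414 of GRCm38, 12.8 kb over exons and introns. The 250 bases upstream of that start are shown because the domain holds them. The RefSeq GRCm38.p6 forward strand is printed for these and all other sequences, and matches on either strand to 5 motifs are in capitals: the homeodomain motif TAATTA, the E-box forms CAGATG and, as the other form, CAGCTG, the GC box GGGCGG and the TATA box TATAAA. No match overlapped another except where stated.
Gad1, chr2:70561879-70562128, + strand: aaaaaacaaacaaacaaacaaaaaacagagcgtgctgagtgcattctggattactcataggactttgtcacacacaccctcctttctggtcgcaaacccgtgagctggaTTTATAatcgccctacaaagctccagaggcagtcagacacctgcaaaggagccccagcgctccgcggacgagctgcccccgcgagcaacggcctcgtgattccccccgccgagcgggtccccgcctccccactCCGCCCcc
It held the TATA box on the reverse strand and the GC box near the start. Of all 32851 RefSeq promoter windows of 250 bases, 12.4% held the TATA box, 32.7% the GC box, 4.84% the homeodomain motif, 14.4% CAGATG and 13% the other E-box form. The domain had 48.4 and 54.1 CPM in CTX and 93.6 to 149 in GE (log2 −0.83; adjusted p = 0.00861 among regions in edgeR). With the covered length as an offset the difference was −0.69 on the log2 scale (adjusted p = 0.0151).

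Gad2 was lower in CTX as well. Its peaks summed to 27.6 and 36.3 CPM in CTX, 135 and 133 in MGE, 112 and 113 in LGE, and 106 and 112 in CGE. The 6 eminence samples lay within 106 to 135 CPM, and both CTX samples fell below that range. The level was 3.2-fold lower in CTX (log2 −1.68, SE 0.12; edgeR adjusted p = 0.00431), and it passed in all 8 fits that left out 1 sample. Per covered kilobase it ran at 3.37 and 3.8 CPM in CTX and at 4.5 to 8.74 in GE. With the covered length as an offset the difference in gene sums was −0.64 and did not pass (edgeR adjusted p = 0.258). In MGE replicate 2, 71.9% of the Gad2 counts lay in a peak shared with a neighbouring gene's window.

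The Gad2 domain at its start, chr2:22617895-22631239, was 13.3 kb wide.
Gad2, chr2:22622077-22622326, + strand: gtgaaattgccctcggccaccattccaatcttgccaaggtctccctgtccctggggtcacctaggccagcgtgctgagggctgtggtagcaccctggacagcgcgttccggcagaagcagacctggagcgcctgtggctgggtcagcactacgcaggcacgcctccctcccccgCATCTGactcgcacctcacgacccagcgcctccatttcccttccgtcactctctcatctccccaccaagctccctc
The window held CAGATG on the reverse strand and none of the other motifs. The domain had 26.6 and 32.5 CPM in CTX and 76.4 to 104 in GE (log2 −1.34; edgeR adjusted p = 0.00267), and the difference held with the length offset (adjusted p = 0.00621 in edgeR).

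Gad2 was also the member with the most peaks away from its start, with 25 merged regions, of which 1 held its start. Those other peaks summed to 3.28 and 6.64 CPM in CTX, 34.5 and 37.3 in MGE, 47 and 44.9 in LGE, and 44.7 and 33.7 in CGE. The fitted log2 difference was −3.05 (SE 0.38; edgeR adjusted p = 0.0241), which includes the difference in the length called, and with the covered length as an offset it was −1.07 (edgeR adjusted p = 0.0429). It ran from −3.76 to −2.62 over the 8 fits without 1 sample and passed in 4, failing without either CGE or either LGE sample (edgeR adjusted p up to 0.107). An intronic region centred 22.5 kb from the start, chr2:22642893-22646819, carried much of it. CTX replicate 1 had no peak there, CTX replicate 2 had a peak of 198 bp with 0.377 CPM, and the 6 GE samples had 20.2 to 27.1 CPM. Reads outside called peaks are not in the counts, so a region without a peak is not a region without reads, and no fold is given. The 250 bases at the centre of the stretch that all 6 GE samples called are shown for that contrast.
Gad2 intron, chr2:22645768-22646017, + strand: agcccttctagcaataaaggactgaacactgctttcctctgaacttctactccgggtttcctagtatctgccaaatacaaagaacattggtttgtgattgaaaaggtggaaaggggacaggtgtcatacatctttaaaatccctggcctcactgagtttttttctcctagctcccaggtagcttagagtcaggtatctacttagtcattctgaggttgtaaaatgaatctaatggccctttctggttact
None of the 5 motifs occurred in it. A second intronic Gad2 region, called in every sample, had 0.655 and 1.6 CPM in CTX and 1.24 to 2.84 in GE and did not pass (log2 −0.53; edgeR adjusted p = 0.481).

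Slc32a1 was lower in CTX in its gene sums. They stood at 21.4 and 15.9 CPM in CTX, 133 and 106 in MGE, 62 and 78.8 in LGE, and 57.4 and 82 in CGE. MGE was highest, LGE and CGE overlapped, and CTX lay below all. The level was 3.81-fold lower in CTX (log2 −1.93, SE 0.24; edgeR adjusted p = 0.00974), and it passed in all 8 fits that left out 1 sample. Per covered kilobase it was 2.98 and 2.06 CPM in CTX against 6.29 to 9.86 in GE. With the covered length as an offset the difference in gene sums was −1.32 and did not pass (edgeR adjusted p = 0.0649).

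All Slc32a1 peaks merged to 1 region, chr2:158604449-158618014, which ran from upstream of the gene over its body to beyond its end. The length called in it differed between the groups: the gene's peaks covered 7.18 and 7.71 kb in CTX and 8 to 13.5 kb in GE.
Slc32a1, chr2:158610508-158610757, + strand: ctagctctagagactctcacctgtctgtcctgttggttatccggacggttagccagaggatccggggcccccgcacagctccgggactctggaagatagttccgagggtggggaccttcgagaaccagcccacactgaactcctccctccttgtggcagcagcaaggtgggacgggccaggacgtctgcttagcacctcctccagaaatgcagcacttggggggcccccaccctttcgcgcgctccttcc
None of the 5 motifs occurred in this window. The region had 27 and 17.4 CPM in CTX and 73.4 to 133 in GE (log2 −1.78; edgeR adjusted p = 0.00522), and the difference held with the length offset (adjusted p = 0.00498 in edgeR).

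Slc17a6, the gene of the vesicular glutamate transporter of young neurons, was higher in CTX, but less evenly. Its peaks summed to 104 and 67.1 CPM in CTX, 41.9 and 40.8 in MGE, 53 and 46.9 in LGE, and 67.3 and 76.4 in CGE. CTX replicate 2 lay below both CGE samples, so the groups overlapped, and CGE stood above LGE, which stood above MGE. The level was 1.91-fold higher in CTX than in the mean of the eminences (log2 0.94, SE 0.20; edgeR adjusted p = 0.0442). It passed in 1 of 8 fits without 1 sample, that without CTX replicate 2, and without CTX replicate 1 the difference was 0.46 (edgeR adjusted p = 0.141). Per covered kilobase the values were 7.97 and 6.54 CPM in CTX and 3.98 to 7.46 in GE, and the groups overlapped there too.

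The Slc17a6 domain at its 2 RefSeq starts, chr7:51620751-51630123, was 9.4 kb wide.
Slc17a6 first start, chr7:51621580-51621829, + strand: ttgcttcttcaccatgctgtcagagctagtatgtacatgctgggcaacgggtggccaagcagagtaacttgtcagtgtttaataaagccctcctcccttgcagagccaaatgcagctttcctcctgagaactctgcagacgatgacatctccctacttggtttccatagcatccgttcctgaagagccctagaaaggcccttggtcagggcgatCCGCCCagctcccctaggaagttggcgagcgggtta
Slc17a6 second start, chr7:51624387-51624636, + strand: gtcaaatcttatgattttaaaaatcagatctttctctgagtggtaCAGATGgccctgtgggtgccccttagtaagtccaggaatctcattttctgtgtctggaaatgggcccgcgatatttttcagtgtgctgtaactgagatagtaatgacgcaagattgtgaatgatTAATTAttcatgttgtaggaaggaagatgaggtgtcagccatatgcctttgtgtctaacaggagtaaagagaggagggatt
The windows had no motif in common: the first held the GC box, and the second held CAGATG and the homeodomain motif. The domain had 75.7 and 50 CPM in CTX, 35.8 and 31.9 in MGE, 36.6 and 35.2 in LGE, and 45.6 and 53.1 in CGE (log2 0.92 for CTX against GE; edgeR adjusted p = 0.0215). With the length offset its adjusted p in edgeR was 0.0511, and it passed in 2 of 8 fits without 1 sample (up to 0.0612).

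An intronic Slc17a6 region 8.5 kb from the start, chr7:51632361-51633955, also differed in CPM between eminences. No such difference passed in the fit of all 8 samples. It had 15 and 11.8 CPM in CTX, 4.03 and 4.39 in MGE, 11.3 and 6.72 in LGE, and 14.6 and 14.3 in CGE. CGE lay within the CTX range, while MGE was lowest. The 250 bases at the centre of the stretch that all 8 samples called are shown since, of the 12 member regions tested, this one had the largest log2 difference between 2 eminences.
Slc17a6 intron, chr7:51633131-51633380, + strand: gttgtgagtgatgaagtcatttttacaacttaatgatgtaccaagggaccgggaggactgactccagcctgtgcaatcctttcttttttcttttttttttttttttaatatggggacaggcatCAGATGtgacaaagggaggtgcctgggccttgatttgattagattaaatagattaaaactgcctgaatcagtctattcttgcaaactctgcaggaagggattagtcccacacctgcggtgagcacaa
The window held CAGATG, as did 18.9% of the 68274 region centres of the same length. CTX exceeded GE there by 0.95 on the log2 scale (edgeR adjusted p = 0.0373), and passed in 2 of 8 fits without 1 sample (up to 0.106). MGE against CGE gave −1.73 and did not pass (edgeR adjusted p = 0.0737), and of the 8 fits without 1 sample it passed in those without CTX replicate 1 or CTX replicate 2 (adjusted p = 0.00849 and 0.0092 in edgeR) and failed in the other 6 (0.166 to 0.401). With the length offset it was −1.38 (edgeR adjusted p = 0.108). A further intronic region, 37.9 kb from the start, did not pass (log2 0.80 for CTX against GE; edgeR adjusted p = 0.23).

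Slc17a7 was higher in CTX in its gene sums. They stood at 75.4 and 50.3 CPM in CTX, 41.1 and 27.7 in MGE, 39.8 and 37.2 in LGE, and 37.3 and 33.2 in CGE. The eminences overlapped one another, and both CTX samples lay above them. The level was 2.06-fold higher in CTX (log2 1.04, SE 0.21; edgeR adjusted p = 0.0402). As for Slc17a6, it passed only in the fit without CTX replicate 2 of the 8 without 1 sample, and without CTX replicate 1 it was 0.60 (edgeR adjusted p = 0.173). Per covered kilobase the groups overlapped, at 7.06 and 6.31 CPM in CTX and 4.54 to 10.5 in GE.

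The largest share of its counts came from the start and the stretch upstream of it, within chr7:45161562-45165942.
Slc17a7, chr7:45163671-45163920, + strand: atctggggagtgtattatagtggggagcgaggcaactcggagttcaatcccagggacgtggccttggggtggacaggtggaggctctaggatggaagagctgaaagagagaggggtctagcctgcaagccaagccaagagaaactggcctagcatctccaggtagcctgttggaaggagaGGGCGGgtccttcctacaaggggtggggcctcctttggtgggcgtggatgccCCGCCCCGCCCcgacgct
The window held the GC box 3 times, with 2 of the matches overlapping by 1 base. In 6 samples a peak ending more than 1000 bp upstream counted as another peak, in CGE replicate 1 it ended nearer and counted as promoter, and in CTX replicate 1 it was merged into a promoter peak of 4381 bp. The promoter and other sums of Slc17a7 therefore depend on where peaks ended. The merged region avoids that split and had 50 and 39.5 CPM in CTX and 21.1 to 33 in GE (log2 0.97; edgeR adjusted p = 0.0087), but with the length offset the difference was 0.30 (adjusted p = 0.293 in edgeR). A second region that counted as promoter, chr7:45166739-45169930 within the gene, stood at 20.1 and 6.42 CPM in the CTX samples. In GE it had 2.95 to 5.92 CPM (log2 1.73 for CTX against GE, edgeR adjusted p = 0.0382). With the length offset the difference was 1.02 and did not pass (adjusted p = 0.161 in edgeR). The call depended on the sample left out, with log2 differences from 0.61 (without CTX replicate 1) to 2.37 over the 8 such fits.

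**Figure D1:**
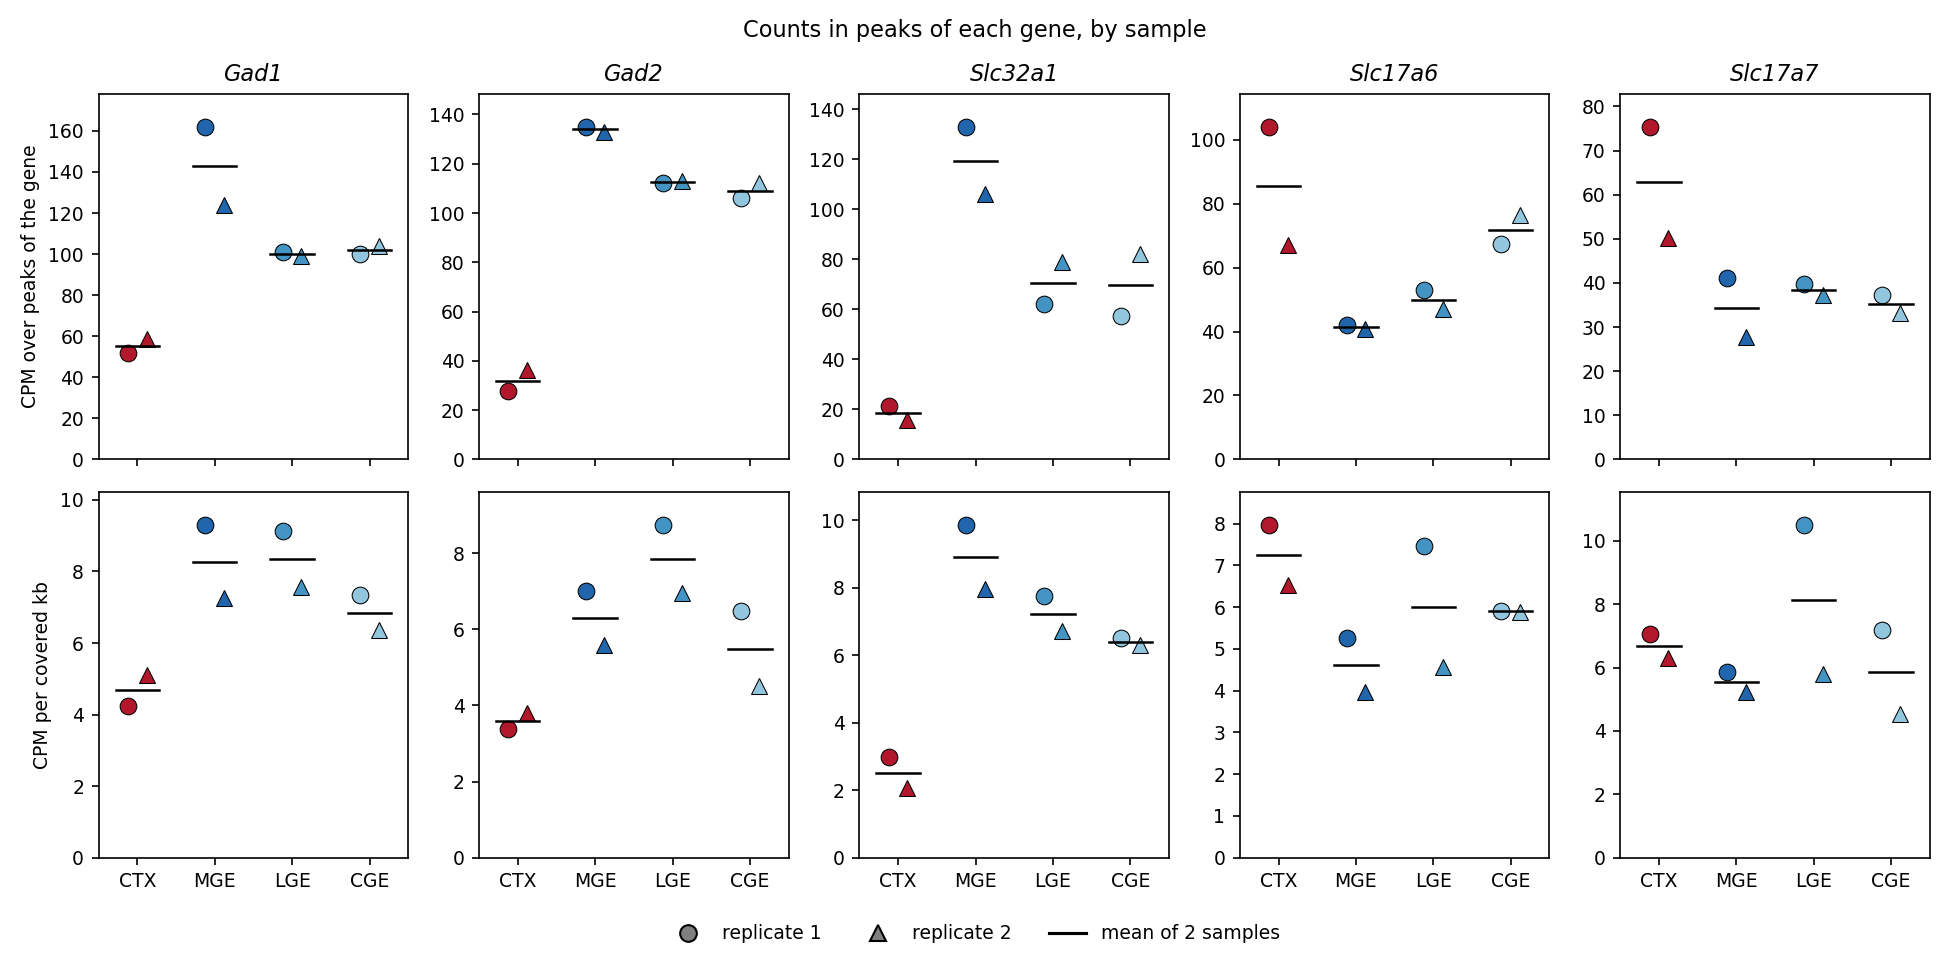
Levels of the 5 genes in each sample. The upper row gives CPM over all peaks of the gene and the lower row CPM per covered kilobase, each with 2 samples a region (circles for replicate 1, triangles for replicate 2) and their mean as a line. In CPM, Gad1, Gad2 and Slc32a1 lay lower in both CTX samples than in all 6 GE samples, and Slc17a7 higher.

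All 5 members passed in CTX against GE, 3 lower and 2 higher. Among 17357 genes tested, 4.51% passed, 0.858% lower and 3.65% higher. Non-overlap was common: 31.2% of genes had CTX and GE samples that did not overlap in CPM and 29.9% in CPM per covered kilobase, beside 4 and 3 of the 5 members. In promoter peaks 3 of 5 members passed, all lower, where 1.27% of 16051 genes did (0.405% lower, 0.866% higher). These were Gad1 (43.6 and 48.2 CPM in CTX, 83.2 to 149 in GE; log2 −0.86), Gad2 (24.4 and 29.7 against 61 to 101; −1.24) and Slc32a1 (16.5 and 15.9 against 57.4 to 133; −2.08), with edgeR adjusted p of 0.0283, 0.00775 and 0.00677. Gad2 and Slc32a1 passed here in all 8 fits without 1 sample, and Gad1 in 2 of them (edgeR adjusted p up to 0.0667). With the length offset none of the 3 passed, at −0.70, −0.84 and −1.24 (edgeR adjusted p = 0.0739, 0.072 and 0.0577). Slc17a6 and Slc17a7 had promoter differences of 1.09 and 2.29 (edgeR adjusted p = 0.0796 and 0.200). Without CTX replicate 1 these were 0.61 and 0.22 (edgeR adjusted p = 0.269 and 0.965), and without CTX replicate 2 they were 1.45 and 3.1 and passed (0.0168 and 0.0378).

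Of the other peaks, which could be tested for 4 members, 1 passed, that of Gad2, where 4.34% of 12742 genes did (1.28% lower, 3.06% higher). Slc32a1 could not be tested, having such a peak only in CTX replicate 1. Gad1 gave −0.43 (edgeR adjusted p = 0.504) and Slc17a6 0.51 (adjusted p = 0.424). The members had 50 merged regions, of which 12 had a peak in all 8 samples and were tested. Of these, 7 passed, 3 lower and 4 higher in CTX, where 14.9% of 68274 regions passed (5.39% lower, 9.49% higher). They are the domains at the starts of the 5 genes and the 2 further regions of Slc17a6 and Slc17a7 described above.

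**Figure D2:**
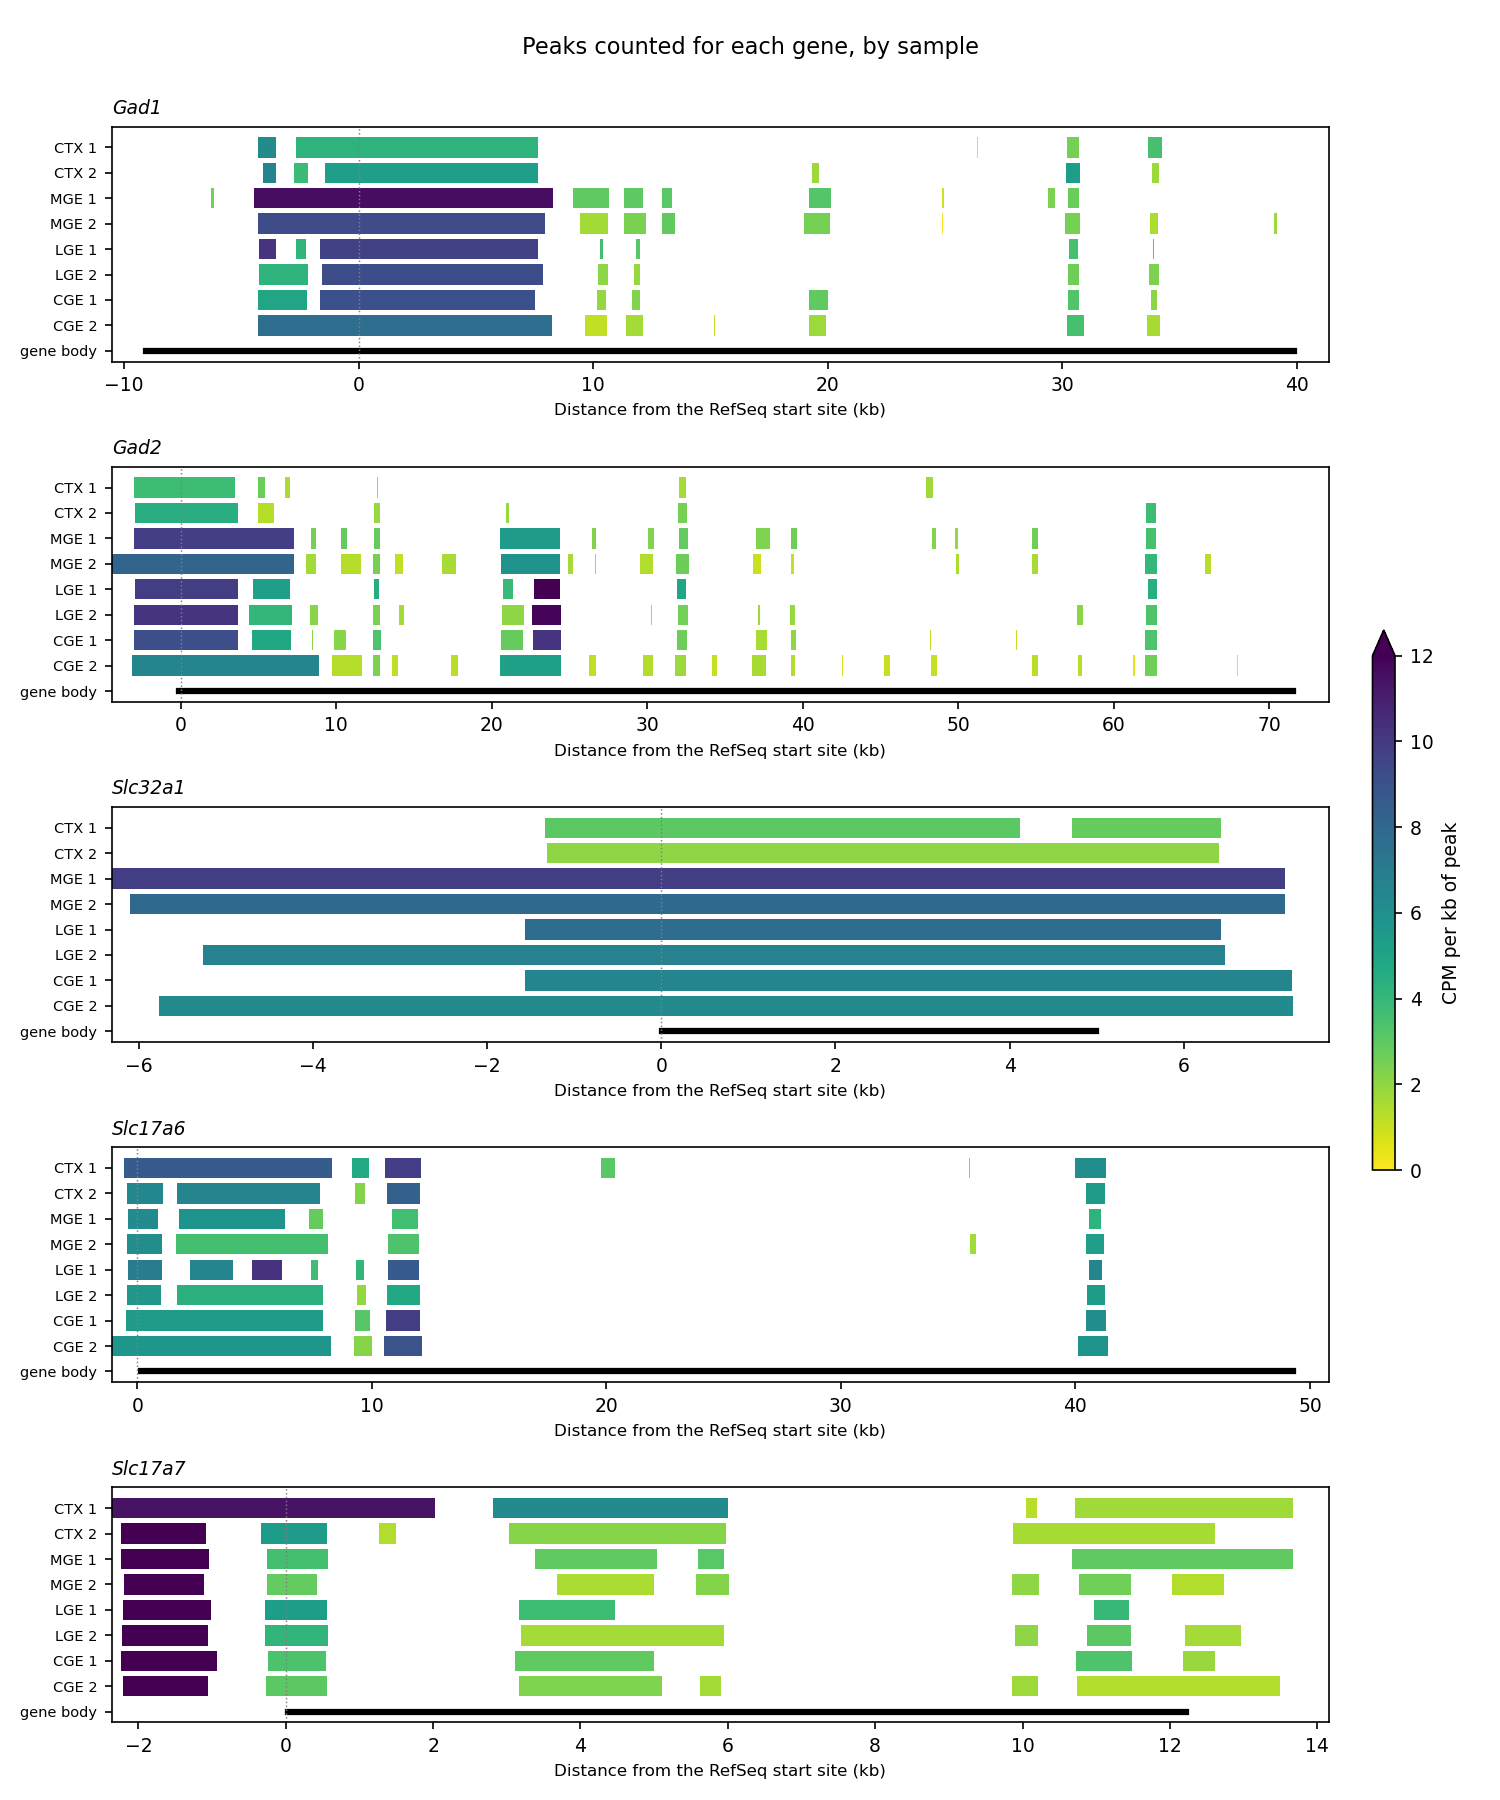
Peaks counted for each gene, by sample, placed by distance from its first RefSeq start site. Colour gives CPM per kilobase of peak, and a black line marks the gene body. The Gad2 peaks away from the start summed to 3.28 and 6.64 CPM in CTX. The boundaries of the Slc17a7 peaks near the start differed in CTX replicate 1 and CGE replicate 1.

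The directions were the same among the samples of each replicate number, though only replicate 1 set CTX against GE at the same labelled age. Within replicate 1 the CTX to GE log2 ratios of CPM were −1.23, −2.09 and −1.97 for Gad1, Gad2 and Slc32a1 and 0.95 and 0.94 for Slc17a6 and Slc17a7. Within replicate 2 they were −0.90, −1.72 and −2.48, and 0.30 and 0.62. There CTX was labelled E14.5 and GE E12.5, so region and age cannot be told apart. In both, the GABA genes were lower and the glutamate genes higher in CTX than in the mean of the eminences. In fits with 1 CTX sample the spread came from the eminences alone, and that sample was assumed to vary as they did. Without CTX replicate 1 the fitted differences were −0.83, −1.58 and −2.27 for the GABA genes (edgeR adjusted p = 0.0484, 0.00454 and 0.0109) and, as given above, 0.46 and 0.60 for the glutamate genes. Without CTX replicate 2 they were −0.82, −1.78 and −1.65 (edgeR adjusted p = 0.0269, 0.00221 and 0.0116), and 1.29 and 1.38 (edgeR adjusted p = 0.00345 and 0.00701).

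With the covered length as an offset 0 of 5 gene sums passed in edgeR, against 10 of all genes. The differences were then −0.52 for Gad1, −0.64 for Gad2 and −1.32 for Slc32a1 (edgeR adjusted p = 0.293, 0.258 and 0.0649). For Slc17a6 and Slc17a7 they were 0.64 and 0.29 (edgeR adjusted p = 0.265 and 0.666).

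**Figure D3:**
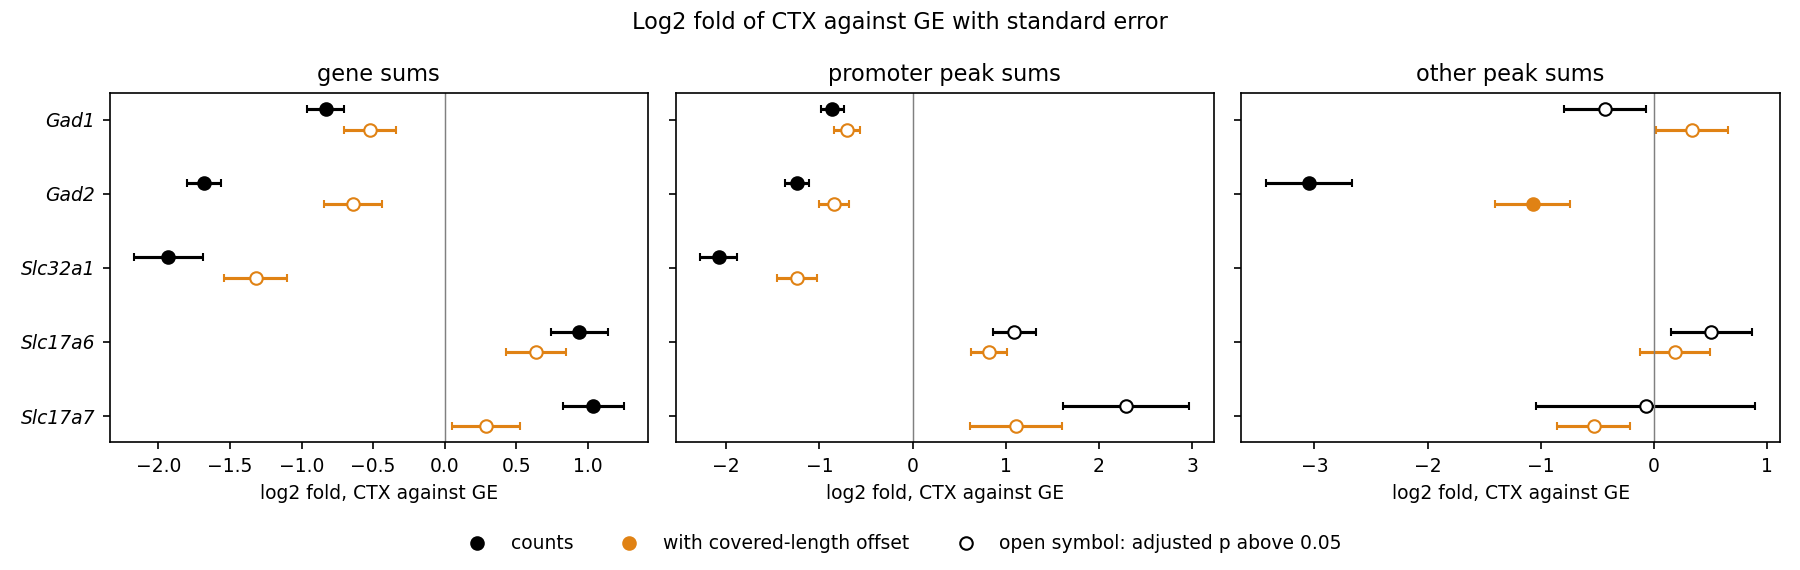
Log2 difference of CTX against GE with its SE, for gene sums, promoter peak sums and other peak sums. Black points are from counts, orange points include the covered length as an offset, and open points have an adjusted p above 0.05. The offset moved every gene sum toward 0, as for Gad2 from −1.68 to −0.64, and no gene sum passed with it.

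No member passed in gene sums between MGE and LGE (0.0864% of genes did), MGE and CGE (0.0864%) or LGE and CGE (0%). At an unadjusted p under 0.05 in edgeR there were 2, 3 and 0 of the 5 members, beside 6%, 6.6% and 1.99% of genes, and by DESeq2 1, 1 and 0 passed, beside 2.81%, 2.52% and 0.559%. Gad1 gave 0.52 in MGE against LGE (edgeR adjusted p = 0.601) and Slc32a1 0.76 (adjusted p = 0.704), and Slc17a6 gave −0.84 in MGE against CGE (adjusted p = 0.634).

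No member passed between eminences in promoter peaks either (0.0685%, 0.0685% and 0% of genes for the same 3 contrasts), with 3, 3 and 1 of the 5 members at an unadjusted p under 0.05 in edgeR, beside 4.5%, 4.65% and 1.91% of genes. By DESeq2 3, 1 and 0 passed, beside 1.81%, 1.59% and 0.667%. Nor did one in other peaks (0.157%, 0.0863% and 0.0392%), with 1, 1 and 0 of 4 members at an unadjusted p under 0.05, beside 9.52%, 8.37% and 3.7% of genes. DESeq2 passed 0 there in each, beside 7.45%, 5.42% and 2.71%. Of the 12 regions 0 passed (0.694%, 0.325% and 0% of regions), with 3, 4 and 0 at an unadjusted p under 0.05 in edgeR, beside 13.5%, 12.9% and 4.78% of regions. DESeq2 passed the intronic Slc17a6 region in MGE against LGE and in MGE against CGE and none in LGE against CGE, beside 7.4%, 6.87% and 0.611% of regions.

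In single nuclei a gene was called open where at least 1 fragment fell in its peaks, after each nucleus was thinned to 3000 fragments in peaks. Thinning left out 151 to 989 nuclei of a sample as too shallow, and not evenly over classes. In CTX replicate 1 fewer than 50 of 137 GABAergic-like nuclei remained, against 2298 of 2367 and 1457 of 1571 in its glutamatergic-like clusters. In MGE replicate 1 the main GABAergic-like cluster kept 2417 of 2970 nuclei and the main progenitor-like cluster 3204 of 3579. The shares and co-opening below are those of the nuclei that remained. Gad1 was open in 13.4% (95% Clopper-Pearson interval 12.4 to 14.6) and 16.1% (15.1 to 17.2) of CTX nuclei, 33.6% and 31.5% of MGE, 22.5% and 24.7% of LGE, and 24.5% and 26% of CGE nuclei. No such interval over the members and samples was wider than 1.64 percentage points to a side. Gad2 was open in 8.32% and 9.5% of CTX nuclei and 25.4% to 34.2% in GE, and Slc32a1 in 5.4% and 4.3% against 14.8% to 29.4%. The peaks were each sample's own, so a share also grows with the length called. In promoter peaks alone Gad2 was open in 7.05% and 7.8% of CTX nuclei and 16.5% to 26.5% in GE. Slc17a6 ran the other way, with 23.1% and 17.4% in CTX, 10.3% to 13.3% in MGE and LGE, and 15.7% and 18% in CGE. Slc17a7 had 17.9% and 13.2% in CTX and 8.01% to 11.1% in GE. Before thinning the shares were higher in every sample, for example 42.8% and 37.7% for Gad1 in CTX and 44.1% to 61.4% in GE. Intervals cover counting error only.

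The shares of open nuclei varied with the class of nuclei. The clusters were made without regions within 100 kb of a member, but classes rest on accessibility in the same nuclei, so this is a description with no test. In the clusters called GABAergic-like, Gad1 was open in 37.2% to 49.9% of a sample's nuclei, Gad2 in 42.7% to 55.9% and Slc32a1 in 25.3% to 46.8%, against 7.18% to 13.3% for Slc17a6 and 5.73% to 12.2% for Slc17a7. Progenitor-like clusters had Gad1 in 10.8% to 22.2%, Gad2 in 12.7% to 24.3% and Slc32a1 in 5.73% to 19.8%, with Slc17a6 in 1.27% to 14.4% and Slc17a7 in 3.57% to 12.7%. In the 1 glutamatergic-like cluster that several samples shared, Slc17a6 was open in 41.4% to 50% and Slc17a7 in 10.6% to 23.8%. Gad1 was open there in 14.9% to 21%, within its progenitor-like range, Gad2 in 9.23% to 18.7% and Slc32a1 in 4.72% to 14.9%. Glutamatergic-like nuclei numbered 802 and 1249 in CGE, 886 and 505 in LGE, and 20 and 62 in MGE. The 2 glutamatergic-like clusters made of CTX replicate 1 had Slc17a6 open in 22.5% and 24.8%, Slc17a7 in 15.5% and 22.2%, and Slc32a1 in 4.26% and 6.38%.

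Endothelial-like nuclei, a non-neuronal class, were taken as a comparison for these shares, called background below. Whether they open these genes themselves was not tested, and their shares differed between samples. There Gad1 was open in 8.94% to 19.6%, Gad2 in 3.57% to 11.7%, Slc32a1 in 4.47% to 16.1%, Slc17a6 in 1.3% to 5.36% and Slc17a7 in 8.93% to 16.9%. These ranges come from CTX replicate 2, MGE replicate 1 and LGE replicate 1, which had 246, 56 and 77 such nuclei at the same thinned depth, and each sample's share is set against its own. In CTX replicate 2 the background was 8.94% for Gad1 (Clopper-Pearson 5.69 to 13.2), 3.66% for Gad2 (1.69 to 6.83) and 3.66% for Slc17a6 (1.69 to 6.83), and the shares over all its nuclei lay above these intervals. Slc32a1 at 4.3% and Slc17a7 at 13.2% lay within theirs, 4.47% (2.25 to 7.86) and 12.2% (8.38 to 16.9), and over the whole sample could not be told from background, though Slc17a7 was open in 23.8% (20.1 to 27.7) of its glutamatergic-like nuclei. In MGE replicate 1 the shares of Gad1, Gad2 and Slc32a1 lay above the intervals, which reached 32.4%, 12.3% and 28.3%. The interval of Gad1 itself (32.4 to 34.8) met its bound, however, and that of Slc32a1 (27.8 to 30.1) overlapped its own. Slc17a6 and Slc17a7 lay within theirs (1.12 to 14.9 and 2.96 to 19.6). All these intervals cover counting error among nuclei, not the spread between samples. In LGE replicate 1 Gad1, Gad2 and Slc17a6 lay above (upper bounds 21%, 21% and 7.02%) and Slc32a1 and Slc17a7 within (4.59 to 19.4 and 9.31 to 27.1), with Slc32a1 open in 25.3% of the GABAergic-like nuclei of that sample. In the main progenitor-like cluster of LGE replicate 1, Gad1 (15.5%), Gad2 (18.9%) and Slc32a1 (8.51%) lay within the background intervals of that sample. In the main progenitor-like cluster of MGE replicate 1, Gad1 (21.7%) and Slc32a1 (15.9%) lay within its intervals and Gad2 (18.5%) above. The other 5 samples, CTX replicate 1 among them, had too few endothelial-like nuclei for a background of their own.

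**Figure D4:**
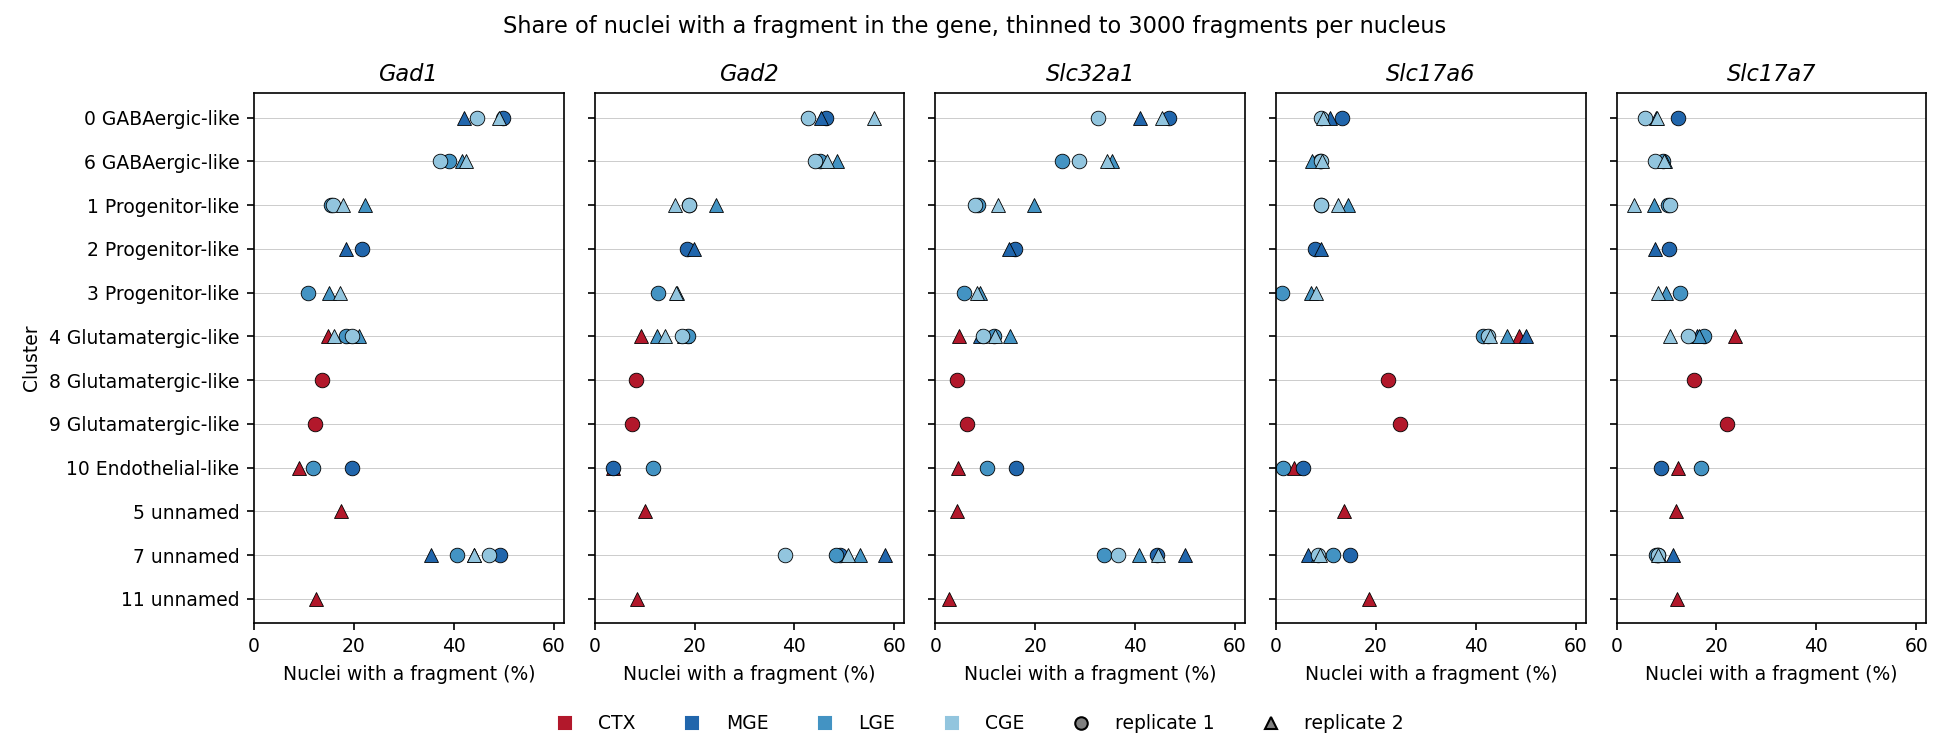
Share of nuclei in which each gene was open after thinning, by cluster class and sample. The 3 GABA genes reached their highest values in GABAergic-like clusters and 1 unnamed cluster, and Slc17a6 in the glutamatergic-like cluster that several samples shared, at 41.4% to 50%.

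The GABA genes opened together in the same nuclei. For each pair of genes the log2 odds ratio of both being open was taken within a sample. Gad1 and Gad2 gave 0.30 and 0.17 in CTX and 0.61 to 1.04 in GE. In MGE replicate 1 they were both open in 12.9% of nuclei, where 10.1% would be if they opened independently. Gad1 with Slc32a1 gave 0.77 and 0.56 in CTX and 0.62 to 1.14 in GE, and Gad2 with Slc32a1 gave 0.92 and 0.31 in CTX and 0.68 to 1.26 in GE. All 3 pairs were above 0 in all 8 samples at this thinned depth.

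The mean over the 3 GABA pairs was 0.66 and 0.35 in CTX, 1.01 and 0.74 in MGE, 0.77 and 1.01 in LGE, and 0.79 and 1.15 in CGE. It exceeded the mean over the 6 pairs of a GABA with a glutamate gene by 0.92 on average, in 8 of 8 samples (exact two-sided sign-flip permutation p = 0.00781, the smallest that sign flips over 8 samples can give; adjusted over 5 co-opening tests, 0.0195). It exceeded pairs of a GABA gene with Actb, Gapdh, Ppia, Rpl13a or Tbp, genes that all cells use, by 0.79, again in 8 of 8 (exact permutation p = 0.00781, adjusted 0.0195). Each value pools all classes of nuclei in a sample. Neither the mixed nor the control pairs can separate co-opening within a class from a mix of classes. The GABA pair mean within clusters is given below. The mean was lower in CTX (0.51) than in GE (0.91), with both CTX samples below all 6 others, but this did not pass after adjustment (exact permutation p = 0.0357, the smallest that 28 arrangements can give; adjusted 0.0595). Without CTX replicate 1 the difference was −0.57 and without CTX replicate 2 −0.25, given with no test since 1 CTX sample against 6 cannot reach 0.05. The CTX values depended on the depth of thinning: at 5000 fragments the mean was 0.17 and −0.03 in CTX and 0.79 to 1.22 in GE, and in CTX replicate 2 it did not exceed the control pairs (−0.02), so that 7 of 8 samples did (exact permutation p = 0.0156, adjusted 0.0391).

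Slc17a6 with Slc17a7 gave 0.34 and 0.47 in CTX and 0.05 to 0.44 in GE, a difference of 0.16 that did not pass (exact permutation p = 0.286, adjusted 0.357). Pairs of a GABA with a glutamate gene averaged −0.03 in CTX and −0.13 in GE (exact permutation p = 0.536). The lowest single value was that of Gad2 with Slc17a6 in CGE replicate 2, at −0.88, where 3.22% of nuclei had both open and 4.82% would under independence.

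Within clusters the GABA pairs were also mostly above 0. Over 28 combinations of a sample and a cluster, their mean log2 odds ratio had a median of 0.32, was above 0 in 25, and was above that of the mixed pairs in 23. In the GABAergic-like clusters it ran from 0.08 to 0.43 (median 0.27), in the progenitor-like from −0.12 to 0.69 (0.46) and in the glutamatergic-like from −0.06 to 0.93 (0.51).

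The marker lists moved with these levels, and their part in the results was not tested. Over all genes 0.858% passed as lower and 3.65% as higher in CTX. Of 10 GABAergic markers 4 were lower in CTX and 0 higher, with sums of 450 and 892 CPM in CTX against 1101 to 2706 in GE. The GE sums hold some counts more than once, since Dlx1 and Dlx2 had equal values in 4 of the GE samples and Dlx5 and Dlx6 in 5, where their peaks were shared. Of 8 glutamatergic markers 4 were higher, with sums of 883 and 573 against 387 to 468. Of 8 endothelial markers 3 were higher (220 and 201 against 159 to 250) and of 8 mural or mesenchymal 1 (149 and 208 against 155 to 207). No progenitor, Cajal-Retzius, microglial or erythroid marker passed, and none of these lists was at 0 in any sample.

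Of 10 genes that handle glutamate, 1 passed, where 4.51% of all genes did (0.858% lower in CTX). It was Slc1a2, the glial glutamate transporter GLT-1, with 61.9 and 60.8 CPM in CTX and 104 to 132 in GE (log2 −0.76, SE 0.12; edgeR adjusted p = 0.0176). The list's median difference was 0.09, beside a median of 0 to 2 decimals over all genes, and none of its genes passed between eminences.

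Over the 8 samples the genes with the most similar gene sums, by Pearson correlation of log2 CPM and at least 1000000 bp away or on another chromosome, were Tmsb10 (0.99), Nptxr (0.987) and Isoc2b (0.985) for Gad1, and Fgf7 (0.998), Dlx1 (0.991) and Gm17720 (0.991) for Gad2. For Slc32a1 they were Epha10 (0.993), Resp18 (0.99) and Ackr3 (0.986). For Slc17a6 they included Pigb (0.991) and Cacna1e (0.98), and for Slc17a7 they were P2ry6 (0.989), Synj2 (0.982) and Syce2 (0.981). The points share libraries and fall into CTX and GE, so these values describe the order of 8 samples.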

How the data were processed

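Per the labels, nuclei were isolated from dounced tissue and run as droplet single-nucleus ATAC-seq. The authors deposited raw counts per peak and nuclear barcode for each sample, made with Cell Ranger ATAC 1.2.0 on GRCm38 (mm10) by the submitters' processing notes, with peaks called in each sample. Entries were mostly even, as counting both fragment ends gives (odd entries 5.17% to 10.4%), so fragments were counts divided by 2 and rounded up. All 39253 deposited barcodes were kept, no doublet caller was run, and deposited transcription factor motif counts were not used. On all 21 chromosomes peaks lay within GRCm38 lengths.

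GENCODE M21 gave 21951 protein-coding genes. Counts were summed over nuclei, per gene or per merged region with a peak in all 8 samples, and tested with edgeR 4.0.16 (glmQLFit, glmQLFTest, TMM, filterByExpr) in R 4.3.3, in 1 model of 4 groups of 2 samples. Benjamini-Hochberg adjustment ran over every gene or region tested, values at or under 0.05 passed, and log2 differences carry the SE implied by the test. CTX was set against the mean of MGE, LGE and CGE. The fit was tested on simulated counts. Nuclei were clustered by Leiden at resolution 0.5 on 30 components of 68213 regions, and named by marker lists with a scoring rule set after clusters had been seen. Co-opening was compared by exact permutation over samples.

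The members, gene lists, markers and tests were chosen with earlier results of these data known. The text names all 5 members, their promoter regions, their 3 highest other regions where these bear on a result, every region that passed, the 3 genes of most similar pattern, and the listed pathway genes that passed. Some of these items and the results that need them are not reported here. The paper supplied with the series does not describe these libraries, so the design follows the labels. Alternatives were DESeq2 1.42.0, a covered-length offset, no filter, other windows, a replicate block, leaving out each sample, other thinning depths and, chosen after seeing the data, library totals without TMM.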

Additional observations from a re-analysis of the deposited data

How the results depend on the processing

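Over the values of single genes and regions, 252 kept their direction and side of the threshold, 61 lost the call, 5 gained one and 6 reversed. Of the 5 gene sums called in CTX against GE, 0 passed with the covered-length offset and 2 to 5 when 1 sample was left out. In promoter peaks 0 passed with the offset. In other peaks 0 passed with the replicate block and 0 to 1 when 1 sample was left out. Of the 12 regions tested, 7 passed as reported, 4 with the offset and 4 to 9 when 1 sample was left out. Between eminences, DESeq2 passed 1 gene sum in MGE against LGE and 1 in MGE against CGE, 3 and 1 promoter sums and 1 and 1 regions. Leaving out 1 sample gave 0 to 1 region in each of these contrasts, and the offset gave 1 member in other peaks for LGE against CGE. The reversed values, not called in either fit, were the other peaks of Gad1 with the offset (0.34), those of Slc17a7 when CGE replicate 2 (0.64), CTX replicate 1 (0.73) or MGE replicate 1 (0.01) was left out (−2.27 to 0.73 over the 8 such fits), the Gad1 region at 70592229 without CTX replicate 2 (−0.05, with −0.05 to 1.28 over those fits) and the Slc17a7 region at 45173778 with the offset (−0.38). The cause was not tested. The 5 co-opening contrasts kept their direction and side of the threshold in all alternatives run. For CTX against GE the side could hardly change, since exact permutation over 28 arrangements gives no p below 0.0357. Without 1 CTX sample 0.05 cannot be reached, so keeping that side says nothing of stability. At 5000 fragments the GABA pair mean of CTX fell to 0.17 and −0.03, and CTX replicate 2 no longer exceeded its control pairs (−0.02).

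Over all genes in CTX against GE, the 782 gene sums called became 2595 with DESeq2, 10 with the offset and, when 1 sample was left out, 230 to 1834. The 204 promoter sums became 1306, 14 and 56 to 459, the 553 other sums 2398, 243 and 0 to 1134 (0 without either CGE sample), and 1 with the replicate block. The 10160 regions became 15780, 6260 and 4274 to 17986, lowest without CGE replicate 2 and highest without CTX replicate 2. Without TMM 459 of 670 gene sums called were higher in CTX, against 633 of 782, and the median of all genes moved by −0.10, with −0.14 for the offset. The replicate numbers were not taken to pair the samples, since the labels name no shared batch and the correlations of deviations between same-numbered samples, all above 0, ran from 0.0327 to 0.2821. The share of odd entries did follow the number (9.54% to 10.4% in replicates 1 and 5.17% to 5.85% in replicates 2), and most progenitor-like nuclei of LGE and CGE lay in different clusters by number (3378 and 1719 nuclei of replicate 1 against 249 and 59 of replicate 2 in one of them). With the replicate block 4 of 5 gene sums passed (Slc17a6 had an edgeR adjusted p of 0.0633), the Gad2 other peaks did not (0.0533), 7 regions did and no direction changed. The 2 samples a region and the separate peak calling limit these values.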

Other observations

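Genes of other transmitter identities were also measured in CTX against GE. Of 10 such genes 2 passed, both lower in CTX, and 0 higher, where 4.51% of all genes passed and 0.858% were lower, and the median difference was −0.04. Th, encoding tyrosine hydroxylase of catecholamine synthesis, had 38.1 and 29.9 CPM in CTX and 75 to 99.8 in GE (log2 −1.13, SE 0.18; edgeR adjusted p = 0.0204). Slc18a2, encoding the vesicular monoamine transporter VMAT2, had 17.7 and 8 CPM in CTX and 51.4 to 80.8 in GE (log2 −2.05, SE 0.34; edgeR adjusted p = 0.0217). The groups did not overlap for these genes, as for 31.2% of all genes. No gene of that list passed between eminences.

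Among the clusters without a class name, 1 had Gad1 open in 35.5% to 49.2% of a sample's nuclei, Gad2 in 38.1% to 58.1% and Slc32a1 in 33.8% to 50%, values that overlap those of the GABAergic-like clusters, while its nuclei came mainly from LGE and CGE. The largest unnamed cluster held 3572 nuclei of CTX replicate 2 and had Gad1 open in 17.4%, Gad2 in 10.1%, Slc32a1 in 4.4%, Slc17a6 in 13.7% and Slc17a7 in 11.9%.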
